A study of Mus musculus with 2 samples.

Results

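The genes examined here encode the acid secretion machinery of the gastric parietal cell: the proton pump subunits Atp4a and Atp4b, the potassium channel subunits Kcnq1 and Kcne2, the ion exchangers Slc26a7, Slc9a2 and Slc4a2, the carbonic anhydrase Car2, the gastrin receptor Cckbr and the chloride channel family member Clic6. They were chosen by name and function, and all 10 were found among the 43346 Ensembl genes of the deposited tables. The libraries were made from total RNA of whole stomach of B6NCrl mouse embryos at embryonic day 16.5. Both come from healthy tissue pooled over male and female embryos, with no treatment or genotype contrast in the labels. The pool of replicate 2 held 41 embryos, and the labels give no number for replicate 1. The 2 libraries form 1 group, so the data answer how strongly each gene was expressed and how far the pools differed, and no condition was compared.

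Parietal cells acidify the gastric lumen. Their H+/K+-ATPase exports protons in exchange for luminal potassium, which returns to the lumen through an apical channel formed by KCNQ1 and KCNE2, while chloride follows through apical channels. Inside the cell carbonic anhydrase II supplies protons and bicarbonate, and the bicarbonate leaves across the basolateral membrane through anion exchangers. Gastrin, histamine and acetylcholine switch the system on through their receptors.

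The total of expected counts, the authors' estimated reads per gene, was 44567153 in replicate 1 and 25677702 in replicate 2. Spike-in RNA took 3.08% and 2.05% of these. Levels are in TPM, transcripts of a gene per fixed total of transcripts after correction for gene length, as mean ± SD over n = 2 libraries. Stomach epithelium was present by its markers: 9 of 10 surface mucous, 6 of 7 chief and 10 of 10 squamous genes reached 1 TPM in both libraries. Of all protein-coding genes 64.3% did so. The gastric lipase gene Lipf stood at 0.02 and 0.13 TPM. The chief genes Cpb1 (121 and 160 TPM) and Bhlha15 (17.3 and 19.3 TPM) were not traced to stomach cells. Pancreatic acinar markers summed to 13851 and 15821 TPM in the same libraries. The libraries differed in other tissue: the summed TPM of 12 skeletal muscle markers was 2673 in replicate 1 and 219.6 in replicate 2, and all 12 were higher in replicate 1. Where nothing else is said, the ratio between the libraries is a log2 ratio of replicate 1 over replicate 2 after TMM scaling, with 1 library on each side and no test.

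Of the 10 genes, 9 reached 1 TPM in both libraries, where 35.5% of all Ensembl genes and 64.3% of protein-coding genes did so. Levels spanned from Car2 at 246 ± 22.5 TPM to Cckbr at 1.04 ± 0.120 TPM. Both libraries ranked the genes in the same order: Car2, Atp4b, Slc4a2, Atp4a, Clic6, Kcnq1, Kcne2, Slc26a7, Slc9a2 and Cckbr. Of the neighbours in that order, Slc4a2 and Atp4a differed by 0.58 ± 0.60 and Atp4a and Clic6 by 0.72 ± 0.85 on the log2(TPM + 0.1) scale, which is less than their spread. The difference between Slc26a7 and Slc9a2 was 0.02 ± 0.01, and the credibility intervals in the authors' deposited tables overlapped in both libraries for this pair and for Kcne2 and Slc26a7. The other 5 neighbouring pairs differed by more than their SD. An exact two-sided sign-flip test over the 2 pools cannot give a p below 0.5, and no test of these differences was made.

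**Figure D1:**
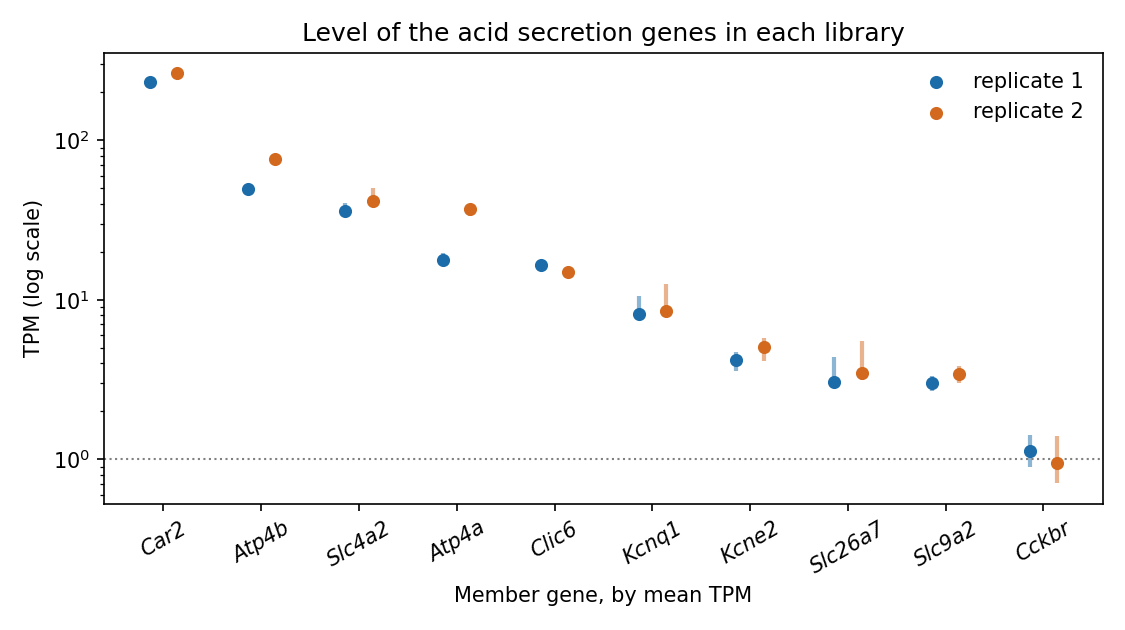
TPM (log scale) of the 10 acid secretion genes in replicate 1 (blue) and replicate 2 (orange), ordered by mean. Points are deposited TPM values, vertical bars the deposited credibility intervals of the posterior mean TPM, and the dotted line marks 1 TPM. The points of Atp4a lie at 17.8 and 37.3 TPM, the widest gap of the 10 genes on the log scale.

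The proton pump has a catalytic alpha subunit, encoded by Atp4a, and a glycosylated beta subunit, encoded by Atp4b, which carries the pump to the membrane. Atp4a (ENSMUSG00000005553.9; chromosome 7, 30712209 to 30725534, plus strand) stood at 17.8 TPM in replicate 1, from 1707 expected counts, and at 37.3 TPM in replicate 2, from 1879. Atp4b (ENSMUSG00000031449.9; chromosome 8, 13386205 to 13396825, minus strand) stood at 49.6 and 76.1 TPM, from 1868 and 1603 expected counts. Both subunits were higher in replicate 2, and in each library Atp4b exceeded Atp4a. The deposited credibility intervals of the libraries did not overlap for either gene: they ran from 16.5 to 19.5 and from 33.4 to 39.6 TPM for Atp4a, and from 46.5 to 50.9 and from 70.0 to 77.2 TPM for Atp4b. Those intervals cover the uncertainty of the quantification within 1 library.

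Atp4b was 2.78-fold above Atp4a in replicate 1 and 2.04-fold in replicate 2, a difference of 1.25 ± 0.31 on the log2(TPM + 0.1) scale (SD, n = 2). Among all detected genes Atp4b stood at percentile 82.9 and Atp4a at percentile 64.9 of mean TPM. The nearest relatives of the pump covered the extremes of level. Atp12a, the alpha subunit of the non-gastric proton pump, had 4 and 5 expected counts, or 0.03 and 0.08 TPM. The sodium pump beta subunit genes Atp1b1 and Atp1b3 stood at 109 ± 6.14 and 137 ± 4.42 TPM, and the testis form Atp1a4 was lowest with 3 and 0 counts. The longest run of identical bases between the longest annotated transcripts was 17 for Atp4a with Atp12a, and at most 15 for Atp4b with the 3 sodium pump beta genes. The deposited effective lengths correspond to reads or fragments of 100 bases, longer than any of these runs. Which of the 2 is meant is not given, and runs with mismatches were not counted.

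The transcript tables hold 5 transcripts of Atp4a and 1 of Atp4b. Atp4a-201, the protein-coding form of 22 exons that starts at position 30712209, carried 88.5% of the gene's TPM in replicate 1 and 81.8% in replicate 2. Atp4a-202, an annotated retained-intron fragment of 738 bases, carried 7.91% and 15.9%, from 27.6 and 65.1 expected counts. Its estimated share was thus higher in replicate 2, and because the fragment is short it weighs more in TPM than in counts. The deposited credibility intervals of its TPM overlapped between the libraries, from 0.33 to 3.07 and from 2.67 to 8.88. The upstream sequence of the start used by Atp4a-201 is shown because this is the pump gene with the larger ratio between the pools in size. It covers the 250 bases before the start on the plus strand of GRCm38.p6, chr7:30711959-30712208, from RefSeq, and capitals mark the letters GATA on either strand.
Atp4a: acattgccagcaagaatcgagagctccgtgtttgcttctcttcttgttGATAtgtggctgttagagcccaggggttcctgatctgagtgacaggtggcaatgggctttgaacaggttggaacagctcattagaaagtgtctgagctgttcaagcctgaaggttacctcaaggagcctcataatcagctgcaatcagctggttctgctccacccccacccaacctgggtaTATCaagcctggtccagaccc
Longer GATA factor motifs (AGATAA and TGATAA, each also with G as the last letter), the ESRR motif (AAGGTCA) and the TATA box (TATAAA) were searched on both strands and none occurs in this window. The GATA letters lie inside each of the longer GATA factor motifs. Over the 32851 promoters of the RefSeq table, windows of the same length held a GATA factor motif in 26.5%, the ESRR motif in 4.08% and TATAAA in 12.4%. The shorter letters GATA, searched after the longer motifs had been looked at, occur in 53.6% of windows and in 2 places here. These matches are letters only.

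The ratio between the pools was -0.94 for Atp4a and -0.58 for Atp4b, or 1.92-fold and 1.5-fold higher in replicate 2. The exact binomial 95% intervals, which cover counting error only, ran from -1.04 to -0.85 and from -0.68 to -0.49. Of the 17763 genes past the count filter, 2.54% had a lower ratio than Atp4a and 5.18% a lower ratio than Atp4b. Ratios within 0.05 of that of Atp4a were found for 57 other genes and within 0.05 of that of Atp4b for 226. In bulk tissue fewer parietal cells and less pump RNA per cell cannot be told apart. With unscaled TPM the Atp4a ratio was -1.06, beyond 2-fold, and with the TPM of its protein-coding transcripts alone it was -0.94. With scaling by spike-in counts, which moves the median of all genes to -0.57, Atp4a stood at -1.52 and Atp4b at -1.16.

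Over the whole set 8 of 10 genes were lower in replicate 1, where 49.6% of tested genes were, and the median ratio was -0.14 against 0.00 for all tested genes. None of the 10 lay beyond 2-fold, where 2.34% of tested genes were lower and 1.24% higher by that much. The pump genes had the lowest ratios, and those of the other 8 ran from -0.23 for Kcne2 to 0.21 for Cckbr. The counting interval of Kcne2 (-0.56 to 0.09) overlaps that of Atp4b (-0.68 to -0.49). Most lists of stomach epithelial genes were also lower in replicate 1. The median ratio was -0.58 for surface mucous genes (10 of 10 lower) and -0.65 for chief genes (6 of 6 past the filter). It was -0.44 for squamous genes (10 of 10) and -0.24 for simple epithelium (7 of 8). Markers of enterochromaffin-like and G cells went the other way, with a median of 0.15 (2 of 6 lower). Their median turned to -0.43 with spike-in scaling. Of the lists of other tissues, pancreatic acinar genes had a median of -0.32 (7 of 12 lower) and summed to 13851 and 15821 TPM. Smooth muscle genes had a median of -0.19 (7 of 8 lower). Erythroid and liver genes had medians of 0.21 and 0.34, which turned to -0.36 and -0.24 with spike-in scaling. Summed TPM of the surface mucous list was 998 and 1934 in replicates 1 and 2. That of the chief list was 6489 and 10604, of which Cym alone gave 6131 and 10063. The part of these tissue differences in the pump ratios was not tested.

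**Figure D2:**
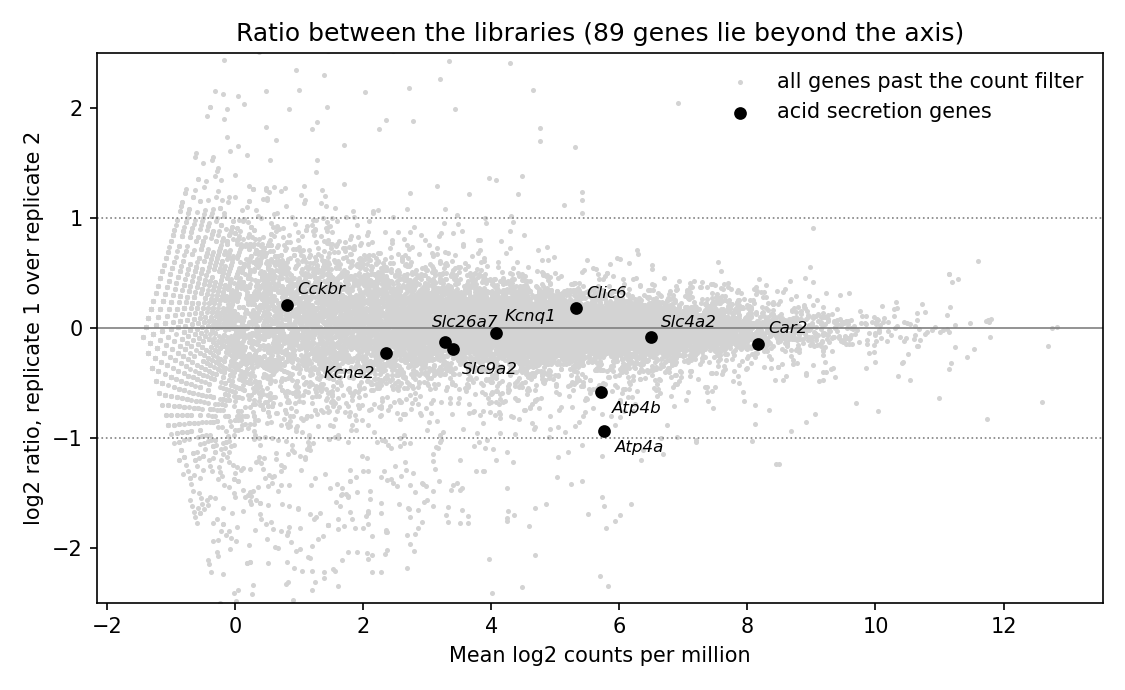
Log2 ratio of replicate 1 over replicate 2 (y axis) against mean log2 CPM (x axis) for the 17763 genes past the count filter (grey), with the 10 acid secretion genes in black. Dotted lines mark 2-fold. Atp4a at -0.94 and Atp4b at -0.58 lie below the other 8 genes, and 89 genes fall outside the y axis.

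**Figure D3:**
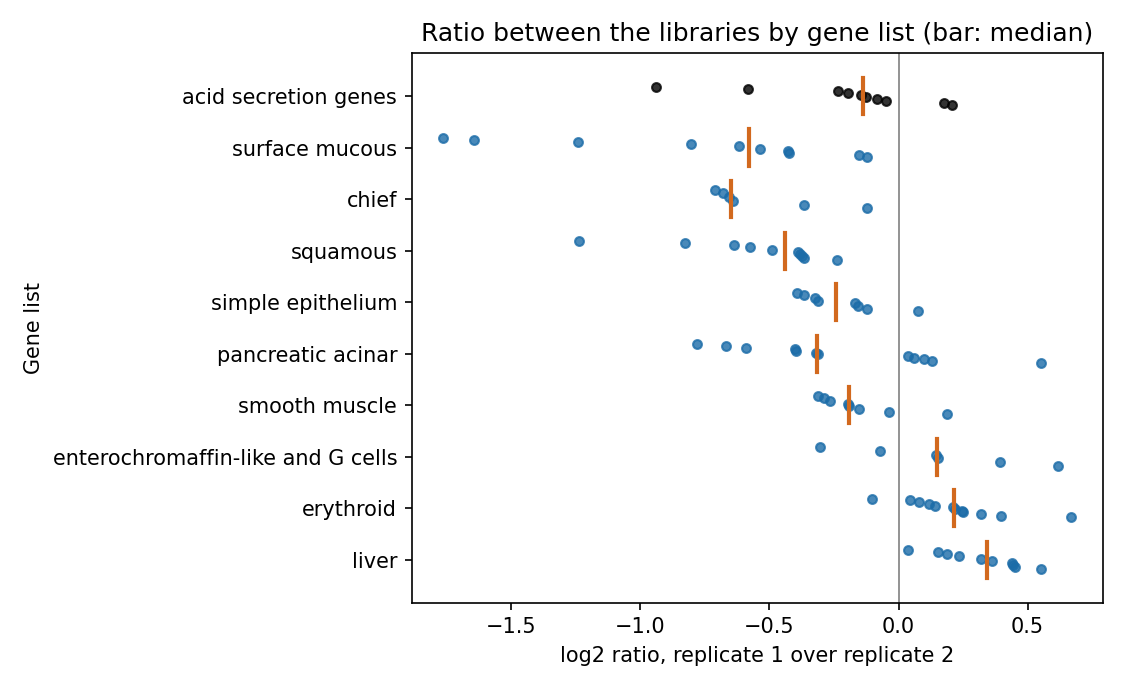
Log2 ratio of replicate 1 over replicate 2 (x axis) for each gene of the acid secretion set (black) and of 9 cell type marker lists (blue), with each list's median as an orange bar. The acid secretion median of -0.14 lies to the right of that of simple epithelium at -0.24. Atp4a and Atp4b fall in the ranges of the surface mucous and squamous lists, and Atp4b also in those of the chief and pancreatic acinar lists.

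Potassium recycling depends on Kcnq1, the pore subunit, and Kcne2, the small subunit that keeps the channel open in acid. Kcnq1 (ENSMUSG00000009545.10; chromosome 7, 143106362 to 143427042) gave 8.14 TPM in replicate 1 and 8.45 TPM in replicate 2. Kcne2 (ENSMUSG00000039672.8; chromosome 16, 92292389 to 92298129) stood at 4.16 and 5.02 TPM, from 203 and 137 expected counts. Kcnq1 exceeded Kcne2 1.96-fold and 1.68-fold, and both lay below the pump: Atp4b was 6.09-fold and 9.00-fold above Kcnq1. The ratios between the pools were -0.05 for Kcnq1 (counting interval -0.22 to 0.13) and -0.23 for Kcne2 (-0.56 to 0.09). Both intervals include 0 and cover counting error only. That of Kcne2 overlaps that of Atp4b (-0.68 to -0.49).

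Kcnq1 lies in an imprinted region and is crossed on the opposite strand by Kcnq1ot1, a long noncoding RNA that silences neighbouring genes on the paternal chromosome. Kcnq1ot1 drew 11130 and 5085 expected counts, or 4.30 and 3.51 TPM over its long transcript. Its exons share 121 bases, or 3.99%, with Kcnq1-201, and the use of strand in counting is not given in the sources used here, so reads in those bases cannot be assigned with certainty. Kcnq1-201 carried 97.8% and 100% of the gene's TPM, and 5 of the 7 Kcnq1 transcripts were listed at 0 TPM in both libraries.

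The Kcne2 locus has 2 annotated starts, and the quantification assigned the counts to 1 of them. Kcne2-201, which starts at position 92292389, held 203 and 137 expected counts, and Kcne2-202, which starts at position 92295616, held 0 in both libraries. Where posterior mean TPM was used instead, the share of Kcne2-201 was 90.1% and 87.1%. The 250 bases before each start on the plus strand of GRCm38.p6 (RefSeq) are shown because these windows precede a start with counts and a start without, at chr16:92292139-92292388 and chr16:92295366-92295615. Capitals again mark GATA on either strand.
Kcne2-201: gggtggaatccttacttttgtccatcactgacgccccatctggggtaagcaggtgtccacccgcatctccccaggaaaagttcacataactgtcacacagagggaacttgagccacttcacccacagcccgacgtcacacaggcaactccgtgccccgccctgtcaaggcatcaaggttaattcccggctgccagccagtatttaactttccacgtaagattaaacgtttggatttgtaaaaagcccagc
Kcne2-202: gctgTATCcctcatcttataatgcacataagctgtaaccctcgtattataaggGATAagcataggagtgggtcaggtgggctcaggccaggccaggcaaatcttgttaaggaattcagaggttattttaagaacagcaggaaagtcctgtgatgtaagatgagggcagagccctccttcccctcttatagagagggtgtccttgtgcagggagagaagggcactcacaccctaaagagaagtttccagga
Neither window holds 1 of the longer GATA factor motifs, the ESRR motif or TATAAA. The letters GATA occur in 2 places before the start without counts and nowhere before the start with counts. The GC content was 52.4% in the first window and 48.0% in the second.

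Clic6 lies on the same stretch of chromosome 16, 187607 bases beyond Kcne2, with the related channel subunit gene Kcne1 between them. Kcne1 stood at 0.74 and 1.32 TPM, from 35 and 42 expected counts, with a ratio of -1.01, beyond 2-fold on few counts. Of the other genes in between, Smim11 stood at 112 TPM on average, Rcan1 at 17.0 and Fam243 at 0.015, so the levels of the neighbours spanned a wide range. In the wider potassium list 7 of 11 matched genes other than Kcnq1 and Kcne2 reached 1 TPM in both libraries, near the 64.3% of protein-coding genes. Of those past the filter 6 of 8 were lower in replicate 1, against 49.6% of all tested genes. Kcnk1, a potassium leak channel, was highest at 53.0 ± 9.73 TPM. The small subunit genes Kcne3 and Kcne4 stood at 12.3 ± 1.48 and 10.4 ± 1.56 TPM, both above Kcne2, and the kidney channel Kcnj1 was lowest with 0 and 2 counts.

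Chloride and bicarbonate transport was represented at unequal levels. Slc4a2 (ENSMUSG00000028962.10; chromosome 5, 24423837 to 24440950), the basolateral exchanger that lets bicarbonate out and chloride in, stood at 35.8 and 41.4 TPM. Slc26a7 (ENSMUSG00000040569.9; chromosome 4, 14502430 to 14621805, minus strand), another basolateral anion transporter of parietal cells, stood at 3.06 and 3.46 TPM. Slc4a2 was 11.69-fold and 11.97-fold above Slc26a7, a gap of 3.52 ± 0.03 on the log2(TPM + 0.1) scale. Clic6 (ENSMUSG00000022949.5; chromosome 16, 92485736 to 92541243), a chloride intracellular channel family member found in water-secreting epithelia, stood at 16.4 and 14.9 TPM. Clic6 alone of these 3 had a higher TPM in replicate 1: its ratio was 0.18 (counting interval 0.06 to 0.29), against -0.08 (-0.16 to -0.01) for Slc4a2 and -0.13 (-0.36 to 0.11) for Slc26a7. With spike-in scaling Clic6 turned to -0.40.

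Slc4a2 was the member with the most divided transcripts. Of its 14 transcripts, Slc4a2-203, which starts at position 24428208, carried 47.4% and 48.4% of the gene's TPM, and Slc4a2-201, which starts upstream at position 24425232, carried 37.0% and 30.4%. Both code for protein and differ at the 5′ end. The order of these transcripts was the same in both libraries, and 4 retained-intron fragments together took 11.3% and 13.5%. The 250 bases before the upstream start on the plus strand of GRCm38.p6 (RefSeq), chr5:24424982-24425231, are shown because this start accounts for the second largest share, and they hold no GATA, ESRR or TATAAA letters, so nothing is in capitals.
Slc4a2-201: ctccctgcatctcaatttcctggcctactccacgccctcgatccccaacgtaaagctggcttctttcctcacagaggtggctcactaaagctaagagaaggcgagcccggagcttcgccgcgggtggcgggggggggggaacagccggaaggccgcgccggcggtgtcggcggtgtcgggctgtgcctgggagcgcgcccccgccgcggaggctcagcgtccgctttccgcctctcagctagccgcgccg
The GC content of this window was 69.2%, against 51.2% for that of Atp4a. At its 3′ end Slc4a2 overlaps Fastk on the opposite strand: 694 of the 3924 bases of Slc4a2-203, or 17.7%, are shared with exons of Fastk, which stood at 75.8 and 79.2 TPM. Reads in those bases cannot be assigned with certainty, since the use of strand is not given.

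Slc26a7-201 carried 81.7% and 80.6% of Slc26a7, and Slc26a7-204, a form of 715 bases, the remaining 18.3% and 19.4%, from 10.6 and 7.07 expected counts. Clic6-201 carried 100% of Clic6. Over the 9 genes with more than 1 transcript the same transcript led in both libraries for 9, and 14 of the 43 transcripts were at 0 TPM in both. Transcripts of a gene share sequence, so shares are estimates.

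**Figure D4:**
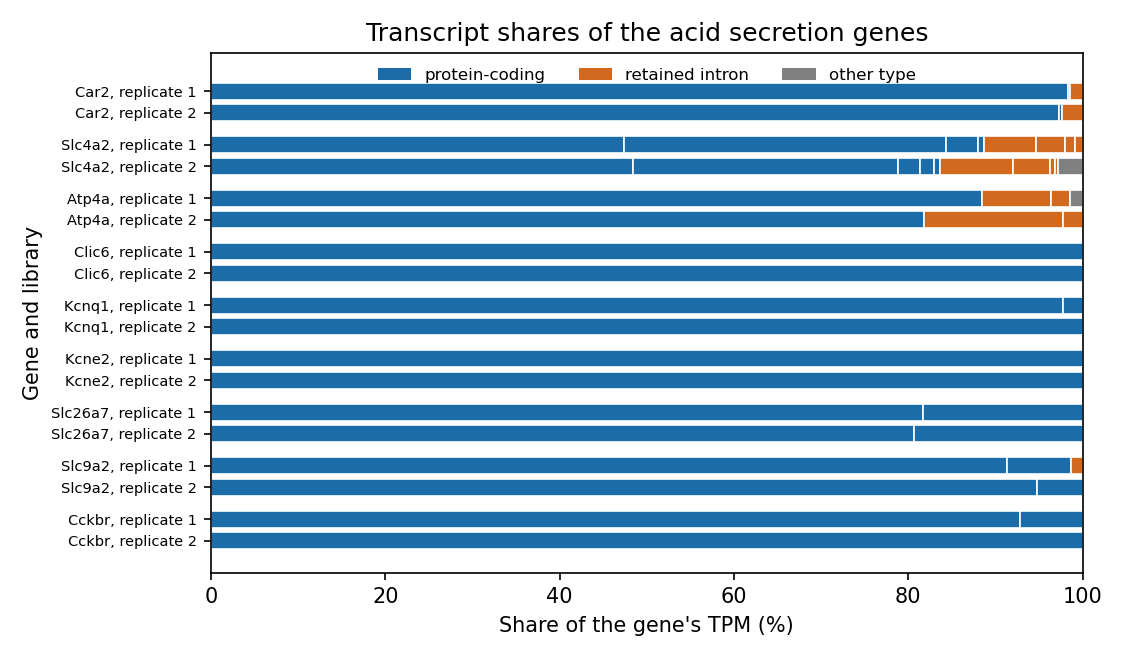
Share of each gene's TPM (x axis, percent) by transcript for the 9 acid secretion genes with more than 1 annotated transcript, in each library; white lines separate transcripts, blue marks protein-coding, orange retained-intron and grey other types. Atp4a has a larger retained-intron share in replicate 2 (18.2%) than in replicate 1 (10.1%), and Slc4a2 is divided between 2 main coding transcripts.

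All 16 other genes of the chloride and bicarbonate list reached 1 TPM in both libraries, against 64.3% of protein-coding genes. In replicate 1, 8 of 16 were lower, near the 49.6% of all tested genes. The intracellular channel family genes Clic1 and Clic4 were highest at 346 ± 34.8 and 114 ± 0.233 TPM. The red cell exchanger Slc4a1, band 3, stood at 35.4 ± 3.95 TPM, close to Slc4a2. Slc26a9, a chloride transporter of gastric epithelium, stood at 7.76 and 10.99 TPM with a ratio of -0.41, and the sodium bicarbonate cotransporter gene Slc4a4 was lowest at 1.79 ± 0.396 TPM.

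Car2 (ENSMUSG00000027562.8; chromosome 3, 14886273 to 14900770), the cytosolic carbonic anhydrase, was the highest of the 10 genes at 230.6 and 262.4 TPM, at percentile 96.0 of detected genes. Its ratio was -0.14 with a counting interval of -0.19 to -0.10, from 11836 and 7496 expected counts. It was 6.44-fold and 6.34-fold above Slc4a2, its partner in bicarbonate export. Carbonic anhydrase II is also made by red cells and other epithelia. Erythroid markers summed to 26659 and 25587 TPM, higher in replicate 1, while Car2 was higher in replicate 2. Pancreatic acinar markers summed to 13851 and 15821 TPM, higher in replicate 2, though by ratio 5 of the 12 were higher in replicate 1. How much of the Car2 or Slc4a2 level belongs to any 1 cell type was not tested. The other carbonic anhydrases were lower: 9 of 15 reached 1 TPM in both libraries, near the 64.3% of protein-coding genes. They were led by Car3 at 23.2 ± 13.0, Car9 at 18.6 ± 0.764 and Car12 at 17.8 ± 4.07 TPM. Car6, the secreted salivary form, had 0 counts in both, which allows up to 3 counts. Car3, known for its abundance in muscle, was the only 1 of the 10 past the filter beyond 2-fold, at 32.3 and 13.99 TPM with a ratio of 1.38, beside the skeletal muscle markers that were higher in replicate 1; their part in it was not tested. The longest run of identical bases between Car2 and Car1, Car3 or Car13 was 30.

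Slc9a2 (ENSMUSG00000026062.8; chromosome 1, 40680574 to 40769273), a sodium-proton exchanger of gastric epithelium, stood at 2.99 and 3.42 TPM with a ratio of -0.19 (counting interval -0.42 to 0.03). Slc9a2-201 carried 91.3% and 94.7% of it. Its relative Slc9a4, the basolateral exchanger linked to parietal cells, was higher at 9.69 and 12.92 TPM with a ratio of -0.40. The scaffold gene Slc9a3r1, which anchors transporters to ezrin, stood at 113 ± 4.16 TPM and the water channel genes Aqp3 and Aqp1 at 94.1 ± 17.8 and 20.4 ± 1.21. Aqp5 was lowest with 0 and 3 counts. In all 6 of the 8 other genes of that list reached 1 TPM in both libraries, against 64.3% of protein-coding genes.

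The receptor genes for gastrin, histamine and acetylcholine stood at low levels. Cckbr (ENSMUSG00000030898.10; chromosome 7, 105425731 to 105470898), the receptor for gastrin, stood at 1.12 and 0.95 TPM, from 79 and 39 expected counts, with a ratio of 0.21 (counting interval -0.36 to 0.81), which turned to -0.35 with spike-in scaling. Atp4b was 44.3-fold and 80.1-fold above it. Hrh2, the histamine receptor of parietal cells, had 12 and 19 counts, or 0.15 and 0.41 TPM, and did not pass the count filter. Chrm3, a muscarinic acetylcholine receptor, stood at 2.25 and 2.32 TPM. By contrast Cckar, the cholecystokinin receptor related to Cckbr, stood at 55.98 and 58.37 TPM. Pancreatic acinar markers summed to 13851 and 15821 TPM in the same libraries. Whether the Cckar RNA came from stomach or pancreatic cells was not tested. The longest run of bases shared by Cckbr and Cckar was 13, against reads or fragments of 100 bases. The signalling genes Gnas, which encodes the stimulatory G protein alpha subunit, and Prkaca, a catalytic subunit of protein kinase A, stood at 530 ± 66.3 and 52.6 ± 16.2 TPM. Of the 14 matched genes of the list other than Cckbr, 12 reached 1 TPM in both libraries, against 64.3% of protein-coding genes. Past the filter 5 of 13 were lower in replicate 1, against 49.6% of all tested genes. The median ratio of these 13 was 0.15 and turned to -0.39 with spike-in scaling. A separate list of markers of enterochromaffin-like and G cells, which signal to parietal cells, had 6 of 6 genes detected and summed to 72.5 and 66.5 TPM.

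Genes for moving and docking the pump were well expressed. All 17 genes of the membrane traffic and cytoskeleton list were detected, against 64.3% of protein-coding genes. Their median level was 64.2 TPM in replicate 1 and 74.2 TPM in replicate 2. The small GTPase genes Cdc42 and Rab11a stood at 594 ± 26.6 and 488 ± 83.8 TPM, and Ezr, which encodes ezrin of the apical membrane, at 248 ± 46.6. Rab11fip2 was lowest at 2.01 ± 0.269. The ratio was below 0 for 15 of 17, against 49.6% of all tested genes, with a median of -0.17. These genes serve many epithelial and other cells.

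Of the transcription factor list 13 of 14 genes reached 1 TPM in both libraries, against 64.3% of protein-coding genes. In replicate 1, 9 of 14 were lower, against 49.6% of all tested genes. Esrrg, a nuclear receptor linked to parietal cell genes, stood at 8.69 and 10.36 TPM with a ratio of -0.22, and its relative Esrrb was lowest at 0.220 ± 0.0141. Hnf4a, Klf4 and Gata4 were highest at 31.1 ± 5.04, 26.1 ± 3.15 and 22.0 ± 3.70 TPM. Over the lists together 86 of 103 genes other than the 10 reached 1 TPM in both libraries, and 59 of 91 past the filter were lower in replicate 1, with a median ratio of -0.08. Of 9 markers of kidney and pancreatic duct, other sites of proton and bicarbonate transport, 2 were detected: Sox9 at 26.27 and 26.17 TPM and Cftr at 3.18 and 3.65. The kidney tubule genes of that list were near 0, with Umod at 0 TPM in both libraries, Aqp2 at 0 and 0.09 and Slc12a1 at 0.01 and 0.03.

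**Figure D5:**
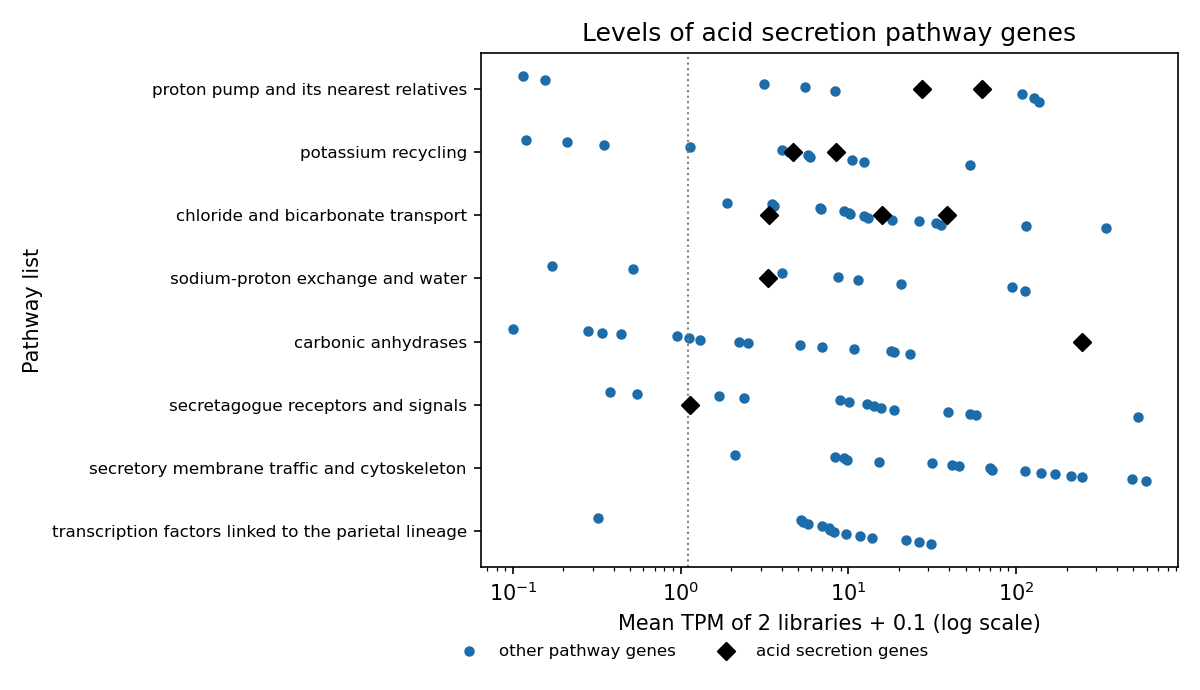
Mean TPM of the 2 libraries plus 0.1 (log scale, x axis) for the genes of 8 pathway lists, with the 10 acid secretion genes as black diamonds and other pathway genes as blue points; the dotted line marks 1 TPM. Car2 at 246 TPM leads the carbonic anhydrases, while Cckbr at 1.04 TPM lies at the lower end of the receptor and signal list.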

How the data were processed

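Total RNA over 200 nt from pooled stomachs was sequenced in 2 libraries of 1 group, with 10 ng of input and ERCC spike-ins per the labels. Replicate names follow the biological replicate number in the labels, and p-values would measure only the spread between these pools. Reads were assigned to mm10 with annotation M4, per the text files deposited with the tables; the aligner is not given in the sources used here, nor is the quantifier. The deposited expected counts, named so in the file headers, are fractional where a read fits several features. TPM and posterior mean TPM, with credibility intervals of unstated level, were deposited by the authors and include spike-ins. Symbols and positions come from GENCODE M21 (GRCm38), which named 42462 of 43346 Ensembl genes; of the lists Kcne5, Trpml1 and Cblif were not matched. The 26248 features with numeric identifiers (74.99 and 27 counts) and the spike-ins stayed out of library sizes.

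For the ratios, edgeR 4.0.16 under R 4.3.3 took the rounded expected counts, dropped low genes (filterByExpr) and applied TMM factors of 1.01 and 0.992, with 2 as prior count. Between the pools the biological coefficient of variation came to 17.3%. With 1 library on each side the ratios have no test. The ratio step was tested on simulated data. Depth sets the precision, and a count of 0 allows up to 3 counts; intervals are exact binomial at 95%, for counting error only, and reads without molecular identifiers are not independent molecules. Transcript shares are a transcript's TPM over its gene's TPM. Promoter windows were found for 4 of the 10 genes (6 entries; Atp4a, Cckbr, Kcne2, Slc4a2) in the RefSeq table. Alternatives changed threshold, unit, pseudocount, filter, scaling (DESeq2 1.42.0, spike-ins) or libraries. Members, lists and rules were chosen with earlier results of these data known. From each list the 3 highest genes, the lowest, those beyond 2-fold and fixed relatives of the 10 genes were named, with transcripts at 10% or more of their gene; Smim11, Rcan1, Fastk and marker genes were named after their values were seen. One gene that the rule names is not reported here. Computations used Python 3.11.15, pandas 2.3.3, numpy 2.4.6, scipy 1.17.1 and matplotlib 3.10.9.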

Additional observations from a re-analysis of the deposited data

How the results depend on the processing

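Of 105 values under alternatives, 76 stayed within the spread or, for counts, within 1.5 times of the value reported, 27 moved further and 2 changed sign. A further 40 values, means of 2 taken from a single library, lie within 1 SD by construction and say nothing about stability; the mean of Atp4a becomes 17.8 or 37.3 TPM. Scaling by spike-ins moved the ratios furthest: the median of the 10 genes became -0.71, Atp4a -1.52 and Atp4b -1.16, 2 genes then lay beyond 2-fold, all 10 were lower in replicate 1, and Cckbr (-0.35) and Clic6 (-0.40) changed sign. That scaling shifts every gene by a like amount. With unscaled TPM, at a pseudocount of 0.1 or 1, 1 gene lay beyond 2-fold, Atp4a at -1.06 and -1.02; the alternative with protein-coding transcripts only (-0.94) was added after the data were seen. The count of genes detected ran from 6 at 5 TPM to 10 at 0.5 TPM, and from 9 to 10 in a single library. The excess of Atp4b over Atp4a ran from 1.03 to 1.47 in a single library. With posterior mean TPM 7 of 9 leading transcript shares moved by more than their SD, Slc26a7-201 to 65.4% and Kcnq1-201 to 81.3%. For Kcne2-201 and Clic6-201 the SD was 0, so any change counted as moved. Posterior mean TPM also gave shares to transcripts with 0 counts, such as 4.23% and 6.58% for Kcnq1-205. The cause was not tested. A ratio has no value without either library. Depth limits genes with few counts, such as Cckbr, Hrh2 and Kcne1, with under 100 counts in each library, and more so those listed with 5 or fewer. No paired analysis was possible because there is only 1 group.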
